A study of Mus musculus with 51 samples.

Results

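The sites described here are places away from known transcription start sites (TSSs) where an antibody against H3K4me2 and H3K4me3 gave a peak in the later part of meiotic prophase and not in its first part, and where an antibody specific for H3K4me3 gave no peak at any stage. There were 4821 of them among 43759 merged H3K4me2/3 sites. Each had a peak in at least 1 of early pachynema (EP), late pachynema (LP) and diplonema (DI), no peak in leptonema (LE) or zygonema (ZY), no overlap with any of the 10 H3K4me3 peak lists, and no GENCODE M21 transcript 5′ end within 500 bp. They are called distal late sites below. The sites were chosen by these peak calls, so the stage pattern and the missing H3K4me3 are the rule and not a result.

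The nuclei came from fixed testes of adult wild-type C57Bl/6J males and were sorted by flow cytometry on SCP3, STRA8, H1t, SCP1 and DNA content into these 5 populations, which were enriched for 1 stage each but not pure. H3K4me2/3 was profiled by ChIP-Seq with Abcam antibody ab8580 in 1 library per stage, H3K4me3 with an EpiCypher antibody in 2 libraries per stage, and H3K9ac with an Active Motif antibody in 1 library per stage. No group was treated or carried an altered allele. H3K4me2/3 has no replicate at any stage, so a call at a second stage is the only repeat observation of a distal late site.

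Trimethylation of H3K4 is concentrated at the promoters of active or poised genes and, in early meiotic prophase, is placed by PRDM9 at recombination hotspots. Dimethylation of the same residue spreads around promoters and also marks enhancers, where trimethylation is low. A site seen with an antibody that binds both forms and not with one that binds trimethylation alone can therefore carry mostly dimethylation, or trimethylation under the calling threshold, and the lists cannot tell these apart. Acetylation of H3K9 accompanies active promoters and enhancers.

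The sequences of 6 sites are given as examples and do not represent the class. The first 4 are among the broadest sites called at all 3 late stages, and none of them overlaps an exon. The fifth is the broadest site of the longest chain of distal late sites, inside the aromatase gene, and the sixth is the 1 site with H3K9ac at 2 late stages. Each line gives the central 300 bp of the merged site, read on the plus strand of mm10 (GRCm38), in lower case. Capitals mark matches on either strand to the words searched below (MYB, RFX, CRE, E-box, CTCF, CCAAT, ETS, AP-1, GATA, NRF1 and GC box).
Smim17 site, chr7:6420753-6421052: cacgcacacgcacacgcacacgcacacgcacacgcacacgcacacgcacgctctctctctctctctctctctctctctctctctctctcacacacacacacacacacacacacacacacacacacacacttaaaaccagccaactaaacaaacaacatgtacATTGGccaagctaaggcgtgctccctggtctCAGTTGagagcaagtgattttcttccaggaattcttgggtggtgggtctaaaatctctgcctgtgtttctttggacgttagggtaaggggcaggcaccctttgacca
Msantd4 site, chr9:4407935-4408234: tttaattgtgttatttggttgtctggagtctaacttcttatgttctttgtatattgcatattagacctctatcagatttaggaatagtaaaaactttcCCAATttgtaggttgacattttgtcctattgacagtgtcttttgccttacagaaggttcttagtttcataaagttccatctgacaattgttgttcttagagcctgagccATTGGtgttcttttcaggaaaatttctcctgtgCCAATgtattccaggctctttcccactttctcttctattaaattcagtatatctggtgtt
Tmem161b site, chr13:84153784-84154083: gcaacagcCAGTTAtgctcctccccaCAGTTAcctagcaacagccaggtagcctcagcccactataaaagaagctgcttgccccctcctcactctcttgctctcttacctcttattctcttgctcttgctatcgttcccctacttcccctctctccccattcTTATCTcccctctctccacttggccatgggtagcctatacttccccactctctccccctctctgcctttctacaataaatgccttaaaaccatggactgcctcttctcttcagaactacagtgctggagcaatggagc
Fggy site, chr4:95830520-95830819: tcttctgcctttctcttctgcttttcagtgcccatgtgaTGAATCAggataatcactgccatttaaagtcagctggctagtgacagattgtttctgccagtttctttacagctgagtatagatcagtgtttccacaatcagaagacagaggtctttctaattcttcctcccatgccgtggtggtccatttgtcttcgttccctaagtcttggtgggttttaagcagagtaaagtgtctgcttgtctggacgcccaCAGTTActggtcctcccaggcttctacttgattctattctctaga
Cyp19a1 site, chr9:54260324-54260623: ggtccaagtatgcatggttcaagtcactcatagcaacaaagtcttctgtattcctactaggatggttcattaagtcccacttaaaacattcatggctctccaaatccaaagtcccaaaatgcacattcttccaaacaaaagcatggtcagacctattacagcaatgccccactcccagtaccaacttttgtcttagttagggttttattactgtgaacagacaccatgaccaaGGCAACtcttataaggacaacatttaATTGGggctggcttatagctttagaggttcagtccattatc
Lemd2 site, chr17:27321213-27321512: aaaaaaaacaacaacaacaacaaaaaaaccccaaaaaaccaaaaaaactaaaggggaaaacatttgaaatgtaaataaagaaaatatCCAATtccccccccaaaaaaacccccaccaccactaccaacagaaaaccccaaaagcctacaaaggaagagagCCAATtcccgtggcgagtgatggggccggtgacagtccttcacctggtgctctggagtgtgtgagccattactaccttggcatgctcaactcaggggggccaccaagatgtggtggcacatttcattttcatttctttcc

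The 6 windows differed in repeat content and in the words they held, and most were low in CpG. They held 11, 0, 1, 3, 0 and 3 CpG in the order printed, and the 11 of the Smim17 window lie mostly in a CA-rich simple repeat at its start. The share of bases that the reference soft-masks as repeat was 60.0%, 88.0%, 91.0%, 9.33%, 81.3% and 55.7%. The mean over all distal late sites was 26.6%, and over those of all 3 stages 19.7%, so most of the printed windows were richer in repeats. MYB words were present in the Smim17, Tmem161b and Fggy windows, and CCAAT boxes in the Smim17, Msantd4, Cyp19a1 and Lemd2 windows.

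The distal late sites were detected mainly in late pachynema and diplonema, and most were seen at 1 stage. Late pachynema had a peak at 2993 of them (62.1%), diplonema at 2670 (55.4%) and early pachynema at 1016 (21.1%). Of all sites, 1481 had a peak in late pachynema alone, 1182 in diplonema alone and 599 in early pachynema alone. Late pachynema and diplonema shared 1142, while early pachynema shared 71 with late pachynema only and 47 with diplonema only. All 3 stages had a peak at 299.

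A peak at 2 or more of the late stages was present at 1559 distal late sites, 32.3%, and at all 3 stages at 6.2%. Over all 24654 merged sites with any late peak, TSS sites included, these shares were 70.0% and 51.6%. Among the 2964 distal sites without H3K4me3 that had both an early and a late peak, 49.2% were called at 2 or more late stages. The rule used these calls, so the shares are given as a description. Of the sites with a late pachytene peak, 48.1% also had one in diplonema, and 12.4% had one in early pachynema. The early pachytene sites had a late pachytene peak in 36.4% and a diplotene one in 34.1%.

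**Figure D1:**
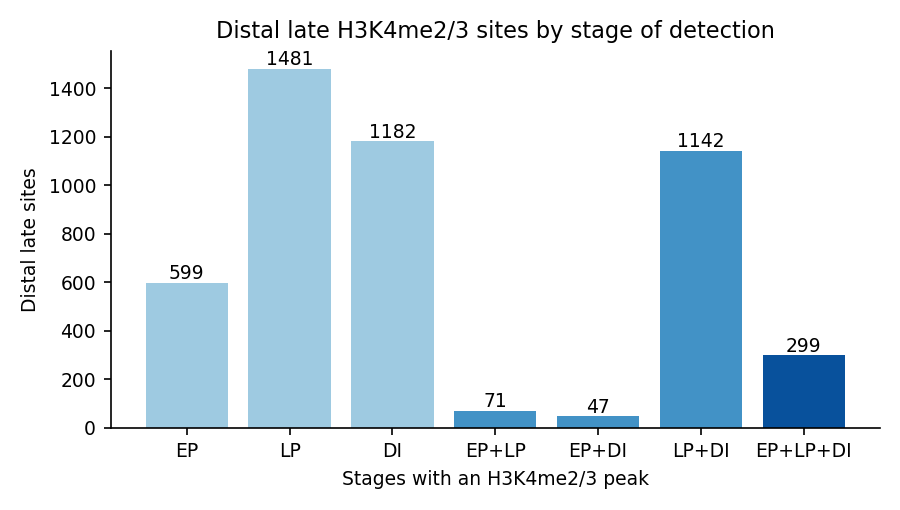
Number of distal late H3K4me2/3 sites (vertical axis) by the stages at which a peak was called (horizontal axis, EP early pachynema, LP late pachynema, DI diplonema). The LP, DI and LP+DI classes hold 1481, 1182 and 1142 sites, and the 299 sites called at all 3 stages are fewer than the 599 called in EP alone.

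The peaks were narrow beside the whole lists they came from. The merged distal late sites had a median width of 473 bp, with quartiles of 256 and 753 bp and a range of 151 to 7667 bp. The early pachytene peaks at them had a median width of 324.5 bp against 864 bp for the whole early pachytene list. In late pachynema the medians were 445 bp and 1121 bp, and in diplonema 550.5 bp and 1294 bp. At or above the median width of their own list were 30 of the early pachytene peaks (2.95%), 209 of the late pachytene (6.98%) and 286 of the diplotene (10.7%). Whole lists include TSS sites and distal sites with H3K4me3, which the rule removed and whose merged sites had medians of 1683 and 950 bp. A wide peak is also more likely to overlap something that excludes it. The part of the rule in these widths was not tested. Distal early sites, which were called in leptonema or zygonema only, were about as narrow, with a median of 448 bp over 8564 sites. Distal sites with both early and late peaks were wider at 881 bp.

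Sites called in both late pachynema and diplonema were wider than those of 1 stage. Merged sites called at 1 stage had median widths of 288 bp (early pachynema), 328 bp (late pachynema) and 380.5 bp (diplonema), whereas those shared by late pachynema and diplonema had 870 bp and those at all 3 stages 902 bp. Merging itself widens a site that is called more than once. In single lists the order was only partly the same. The late pachytene peak was 328 bp wide at sites of that stage alone, 558 bp at sites shared with diplonema and 671 bp at sites of all 3 stages. The diplotene peak was 380.5, 770 and 728 bp wide in the corresponding classes. The early pachytene peak was 288 bp wide at sites of that stage alone, 385 bp at those shared with late pachynema only, 301 bp at those shared with diplonema only and 357 bp at those of all 3 stages.

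**Figure D2:**
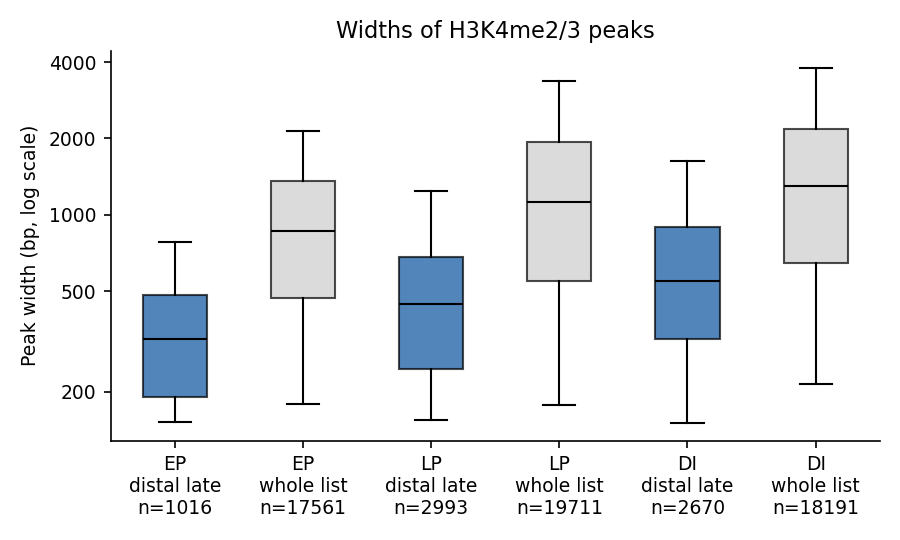
Width of H3K4me2/3 peaks in bp (vertical axis, log scale) at distal late sites (blue) and over the whole list of the same stage (grey), with the number of peaks or sites. Boxes span the quartiles with the median as a line, and whiskers reach the 5th and 95th percentiles. At each stage the median at distal late sites, 324.5, 445 and 550.5 bp, lies below the lower quartile of the whole list, 469, 546 and 646 bp. The whole lists include TSS sites and distal sites with H3K4me3, which the rule removed.

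Among the sites called at all 3 stages, the 12 with the highest mean width percentile were spread over 9 chromosomes. The highest lay in an intron of Zbtb7c, which encodes a zinc-finger protein (chr18:75922553-75924791), with peaks of 1013 bp in early pachynema, 1770 bp in late pachynema and 2239 bp in diplonema. The second overlapped an exon of Tnfrsf8, the CD30 receptor gene (chr4:145298577-145301256), with 535, 2144 and 2202 bp. At both sites the early pachytene peak was the narrowest and the diplotene peak the widest.

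The site in an intron of Smim17 (chr7:6419684-6422121, 4509 bp downstream of its nearest 5′ end) had peaks of 324, 1707 and 2438 bp at the successive stages. The site 23160 bp downstream of the 5′ end of Msantd4 (chr9:4406695-4409475) had 218, 1722 and 2781 bp. At these 2 sites the early pachytene peak was less than 1 in 5 of the diplotene width.

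The site 67712 bp upstream of Tmem161b (chr13:84153283-84154584) was different in that its 3 peaks were alike, at 1050, 1254 and 1203 bp. The site in an intron of Fggy, a carbohydrate kinase gene (chr4:95829701-95831639), had 587, 1771 and 1523 bp. The other 6 lay nearest to Kcnd2, a potassium channel gene, Ankrd46, Tent4a, the cadherin gene Cdh8, Mgat1, an enzyme of N-glycan synthesis, and the zinc-finger gene Zfp608, at 8131 to 512265 bp. The early pachytene peak was the narrowest at each of the 12, by the smallest margins at Tmem161b and at Mgat1, where the peaks were 823, 1435 and 1081 bp wide. Median widths of the whole lists rose too, from 864 bp in early pachynema to 1121 bp in late pachynema and 1294 bp in diplonema.

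Sites of a single stage included a few broad ones. In early pachynema the 3 broadest were 1138, 1031 and 1014 bp wide and lay 116047 to 248110 bp from Gas1, a hedgehog co-receptor, Mis18a, a centromere assembly factor, and Ndfip2, an adaptor of ubiquitin ligases. In late pachynema alone the broadest ones included sites of 2279 bp (nearest to Csmd3, on the processed pseudogene Gm2267) and 1709 bp (nearest to A730009L09Rik). The broadest of diplonema alone were 3396 and 2536 bp, both in introns of Cyp19a1, followed by 2308 bp near Tmem74. The broadest distal late site of all was shared by late pachynema and diplonema and lay on chromosome 18 (chr18:67052489-67060155), 28061 bp upstream of Gnal, a G-protein subunit gene. Its broadest single peaks were 2586 bp in late pachynema and 5606 bp in diplonema. This site was named after its width was seen.

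The distal late sites were spread between and within genes, and few touched an exon. By GENCODE M21, 2362 (49.0%) were between genes, 1901 (39.4%) in introns and 558 (11.6%) touched an exon. The exonic share was 17.9% for distal early sites and 21.3% for distal sites with both early and late peaks, and the intronic shares were 30.0% and 26.6%. The nearest protein-coding 5′ end was at a median of 27042 bp, with quartiles of 6390 and 93866 bp. Distal early sites had 22046.5 bp with quartiles of 7814.8 and 64797.8 bp. The distribution was thus broader for the distal late sites at both ends. Within 5 kb of a 5′ end were 22.0% of the late and 16.6% of the early sites, and beyond 50 kb 36.9% and 30.2%. The site lay upstream of the gene in 2253 cases (46.7%). No test was made between the classes, since the peak calls define them.

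**Figure D3:**
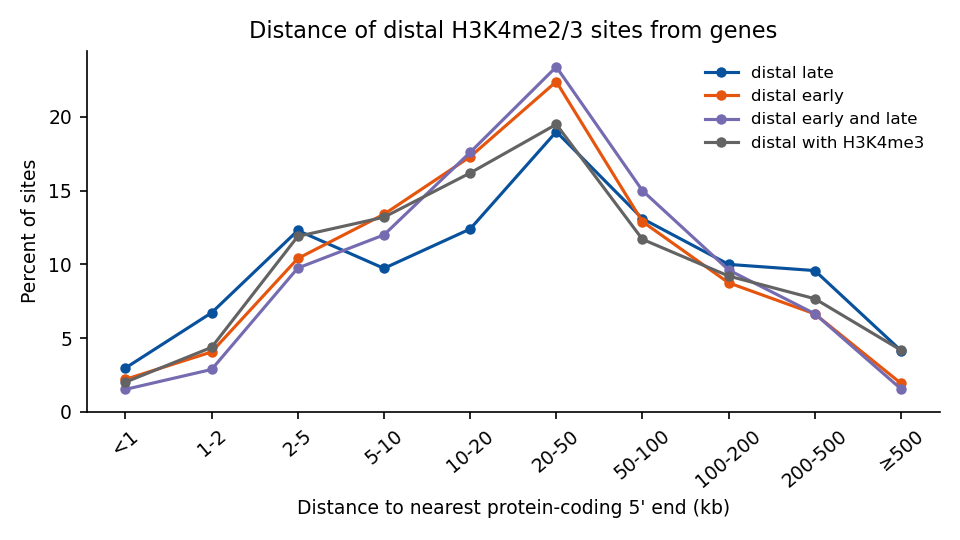
Percent of sites (vertical axis) by distance to the nearest protein-coding 5′ end in kb (horizontal axis, unequal bins) for distal late, distal early, distal early and late, and distal H3K4me3-positive H3K4me2/3 sites. Distal late sites have a larger share than distal early sites at 500 kb and beyond, 4.15% against 1.93%, and a smaller one between 5 and 20 kb. At 500 kb and beyond, distal sites with H3K4me3 have 4.18% and distal early and late sites 1.55%.

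Place differed between the stages. Sites of late pachynema alone were nearest to genes, with a median of 13908 bp and 41.2% between genes, followed by those of diplonema alone at 21886 bp and 45.5%. Sites of early pachynema alone were at 50698 bp with 61.9% between genes, and sites of all 3 stages at 48243 bp with 60.2%. Sites shared by late pachynema and diplonema were in between at 32697.5 bp and 51.3%. The 3 classes with early pachynema and 1 or 2 further stages had 60.2% to 72.3% of their sites between genes.

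The limit of 500 bp cut through a continuous range. The closest distal late sites were 502 bp from Gm10663 (820 bp wide, all 3 stages), 505 bp from 2010109I03Rik and 506 bp from Gm45670 (537 and 158 bp wide, late pachynema). Left out just inside the limit were sites 500 bp from Fam243, 499 bp from 1700009N14Rik and 495 bp from Odf1, a gene of the sperm tail outer dense fibres, all called in late pachynema and 591, 468 and 1726 bp wide. A further 966 sites met every condition but this one, and 676 met every condition but the absence of H3K4me3. Of the distal late sites, 267 (5.54%) had a 5′ end within 1000 bp, and 276 (5.72%) had a 5′ end of a RefSeq transcript within 500 bp that GENCODE M21 does not place there.

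Few lay within 1 kb of the peaks used to exclude others, and more lay within 5 kb. The nearest H3K4me3 peak of any library was at a median of 26010 bp, and 125 sites (2.59%) had one within 1 kb and 943 (19.6%) within 5 kb. The nearest H3K4me2/3 peak of leptonema or zygonema was at a median of 15991 bp. Within 1 kb of one were 324 sites (6.72%) and within 5 kb 1265 (26.2%). Other classes of sites were not measured in this way.

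H3K9ac, which the rule did not use, was rare at the distal late sites and was found mostly in early pachynema. A peak overlapped 15 sites in zygonema (0.311%), 47 in EP (0.975%) and 1 in LP (0.0207%), and 0 in leptonema and diplonema, where 0 of 4821 allows a share of up to 0.0622%. Over all merged sites the shares from leptonema to diplonema were 6.34%, 33.7%, 17.1%, 3.86% and 1.13%, above those of the distal late sites. All merged sites include the TSS sites and the distal sites with H3K4me3, which the rule removed. At distal early sites the share was 0.0117% in leptonema and 0.0% in late pachynema and diplonema. Distal sites without H3K4me3 that had both early and late peaks had 0.0675%, 0.0% and 0.0%. The mean share over the 3 late libraries was 0.332% ± 0.557 (SD, n = 3) and over the 2 early libraries 0.156% ± 0.22 (SD, n = 2), a difference of 0.176 points (p = 1.0 by a two-sided exact permutation test, where 3 against 2 libraries can give no p below 0.2). These are single libraries of different stages and not replicates, so the SDs include differences between stages and between list lengths. The difference between the means changed sign under 3 alternatives given in the closing section.

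The shares with H3K9ac in zygonema and early pachynema differed between the distal classes. These classes are defined by the stages of their H3K4me2/3 peaks, and how far the rule sets the difference was not tested. Early pachytene H3K9ac was present at 0.975% of the distal late sites (95% exact binomial interval 0.717 to 1.29%) and at 0.105% of the distal early sites (0.0481 to 0.199%). Zygotene H3K9ac was present at 0.311% (0.174 to 0.513%) of the late and 6.43% (5.92 to 6.97%) of the early sites. Distal sites with both early and late H3K4me2/3 peaks had 13.1% in zygonema and 4.01% in early pachynema. The intervals cover counting error over sites from 1 library per stage, and the H3K9ac lists ranged from 516 peaks in diplonema to 16003 in zygonema. They also treat sites as independent. Of the 47 distal late sites with early pachytene H3K9ac, 8 stood in the long chains described below, so the interval is too narrow.

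The 47 sites with early pachytene H3K9ac had a median width of 860 bp against 473 bp for all distal late sites, and 33 of them lay between genes. An early pachytene H3K4me2/3 peak was present at 26 of them and absent from 21, and 36 had an H3K4me2/3 peak in late pachynema. By class, 15 of the 299 sites of all 3 stages carried it, 10 of the 1142 sites of late pachynema and diplonema, 4 of the 71 of early and late pachynema and 1 of the 47 of early pachynema and diplonema. Of the sites of 1 stage, it was at 6 of 599 in early pachynema, 7 of 1481 in late pachynema and 4 of 1182 in diplonema. The broadest of them was the site upstream of Gnal. Another lay in the chain near Lemd2 described next. The single site with H3K9ac in both early and late pachynema belonged to that chain (chr17:27320785-27321940, 1156 bp, called in diplonema).

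Most distal late sites stood alone, but a few loci held many of them in a row. Sites less than 25 kb apart were joined into chains. By this measure 3889 sites had no neighbour and 932 (19.3%) stood in chains of 2 or more. Of the distal early sites, 34.4% did. These are more numerous, at 8564 against 4821, and a neighbour within a fixed distance is more likely where sites are denser. The 2 shares were not adjusted for this. Chains of 5 or more numbered 7 and held 53 sites. None of these 53 had a peak in early pachynema, which 21.3% of the other distal late sites had. Diplonema had a peak at 38 of the 53 (71.7%) and late pachynema at 23 (43.4%). A late-stage H3K4me3 peak lay within 25 kb of 52 of the 53, and of 33.1% of the others. The 53 sites share 7 loci and are not independent of each other.

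The longest chain had 12 sites over 48809 bp in introns of Cyp19a1, which encodes aromatase, the enzyme that makes oestrogens from androgens (chr9:54217626-54266434). A diplotene peak was present at 10 of them and a late pachytene one at 3. The diplotene peaks were 151 to 3396 bp wide. The sites lay on both sides of a broad H3K4me2/3 site of 9040 bp that overlapped H3K4me3 peaks and was therefore no distal late site. Its H3K4me2/3 peak was 1191, 1156 and 1345 bp wide up to early pachynema, 3831 bp in late pachynema and 8974 bp in diplonema.

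The second chain had 9 sites on chromosome 17 (chr17:27301670-27331458), of which 7 had a late pachytene and 5 a diplotene peak. The nearest protein-coding gene was Lemd2, an inner nuclear membrane protein gene, at 97201 to 126346 bp. GENCODE M21 places the lincRNA Gm49793, the transcript Gm10505 and the miRNA genes Mir7214 and Mir7216 there. An early pachytene H3K9ac peak overlapped 6 of the 9 sites, which is 6 of all 47 in the class. Beside them lay a site of 8112 bp with H3K4me3, whose H3K4me2/3 peak was 1550 bp wide in early pachynema, 6969 bp in late pachynema and 5906 bp in diplonema.

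The third chain had 8 sites (chr9:67714946-67756021), 7 with a diplotene and 2 with a late pachytene peak. By GENCODE M21 they lay between genes upstream of C2cd4b, whereas the C2cd4b gene of RefSeq overlaps the span of the chain. An early pachytene H3K9ac peak overlapped 2 of the 8. The miRNA genes Mir7241 and Mir7242 lie within the chain. The sites flanked one of 13709 bp with H3K4me3. Its H3K4me2/3 peak went from 383 bp in leptonema through 786 and 1244 bp to 7288 bp in late pachynema and 13709 bp in diplonema. The fourth had 7 sites upstream of Prmt8, an arginine methyltransferase gene (chr6:127781556-127808959), on either side of a site of 8565 bp with H3K4me3. There the peak was 1345 bp in early pachynema, 3256 bp in late pachynema and 7844 bp in diplonema, and leptonema and zygonema had none. Mir7233 lies in that chain.

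There were 6 sites in each of the next chains, near Rgma (chr7:73112254-73129003) and Ddx11, a DNA helicase gene (chr17:66202396-66217008). The Ddx11 chain flanked a site of 6424 bp with H3K4me3 in the diplotene libraries, while the nearest H3K4me3 peak to the Rgma chain lay 6672 bp outside it. The chain of 5, nearest to E330034G19Rik and Polr3a on chromosome 14, held a site of 3604 bp with a diplotene H3K4me3 peak. In all, 6 of the 7 chains enclosed a broad H3K4me3-positive site, whose H3K4me2/3 peak was at its widest in diplonema at 4 loci and in late pachynema at 2 (near Lemd2 and E330034G19Rik). In early pachynema it was 805 to 1550 bp wide and, near E330034G19Rik, absent. By their medians, peaks of the whole lists were also wider in late pachynema and diplonema than in early pachynema. Pachytene spermatocytes make long noncoding precursors of piRNAs, the small RNAs that guide PIWI proteins, from clustered loci that can be transcribed in both directions from a shared promoter. No map of these loci was used here, and whether the chains coincide with them was not tested.

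**Figure D4:**
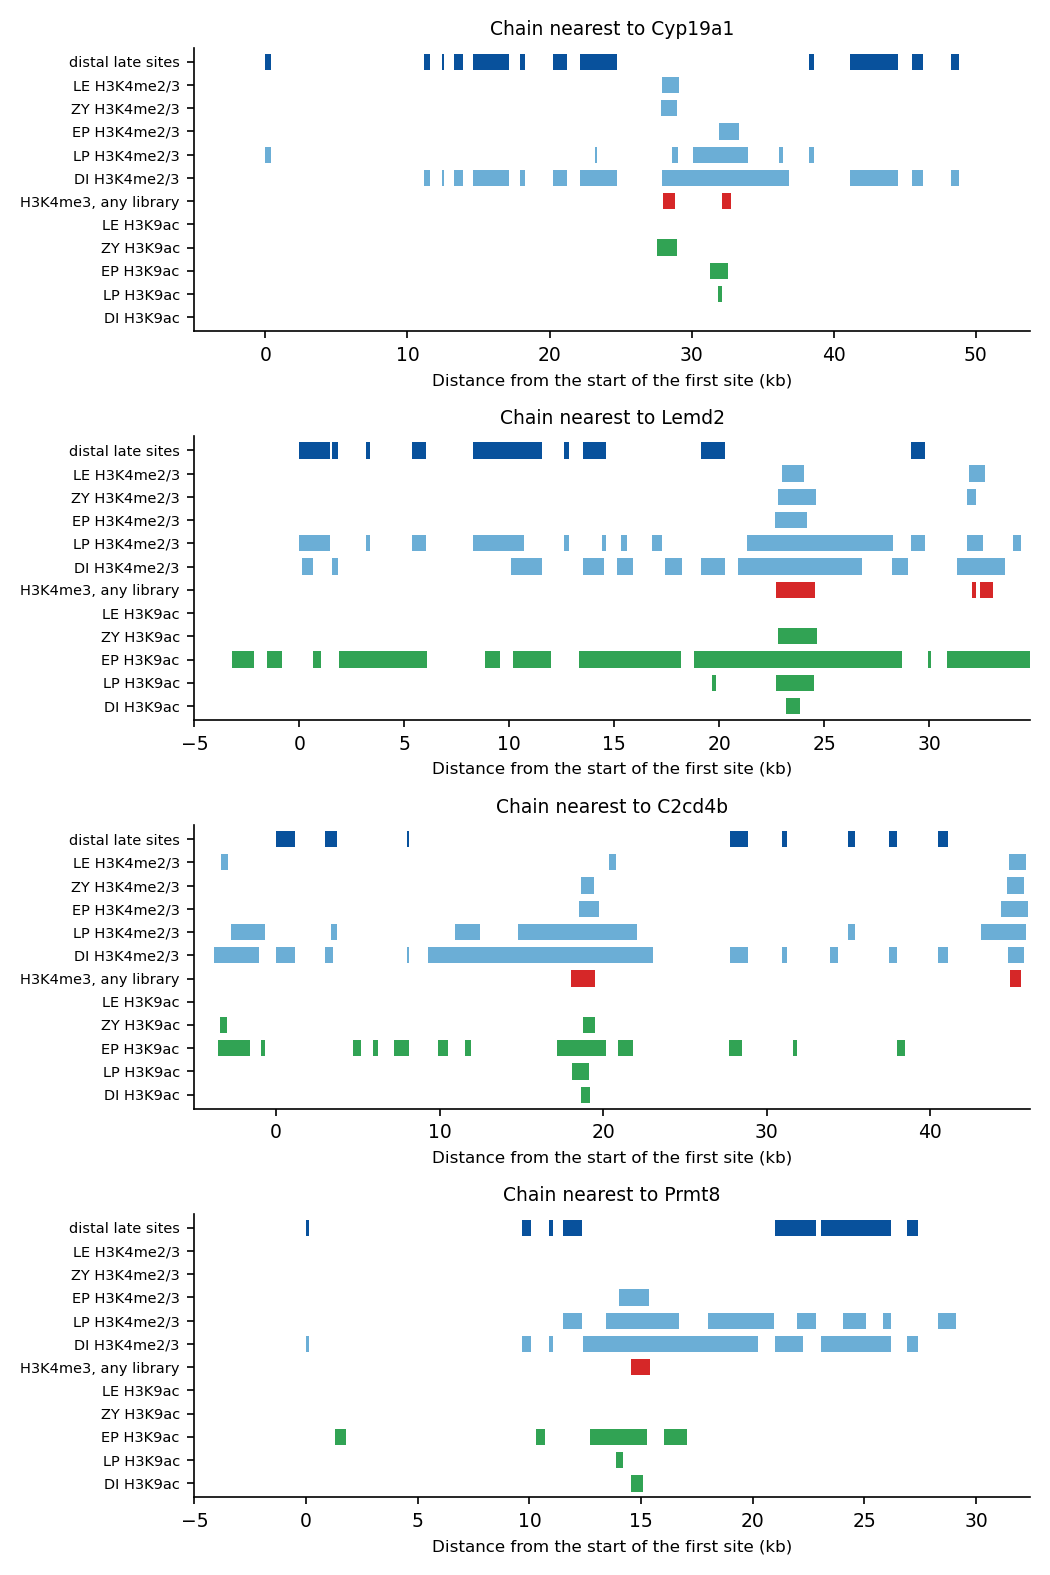
Peaks in the 4 longest chains, drawn against the distance in kb from the start of the first distal late site (horizontal axis). Rows show the distal late sites (dark blue), the H3K4me2/3 peaks of each stage (light blue), H3K4me3 peaks of any of the 10 libraries (red) and H3K9ac peaks of each stage (green). The distal late sites lie on both sides of a H3K4me3 peak, and the H3K4me2/3 peak over it is broader in diplonema and late pachynema than in early pachynema.

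The distal late sites were nearest to 3441 of 20780 protein-coding genes, 16.6%. Of these genes, 2547 were nearest to 1 site and 43 to 5 or more. After Cyp19a1 with 12 sites came Dlg2, a synaptic scaffold gene, and Lemd2 with 9 each. Genes with 8 were C2cd4b, the kainate receptor gene Grik2, Rgma, Sdk2, the transcription factor gene Sox5 and Zfp608. Outside the chains the sites of 1 gene were spread out. The 9 sites of Dlg2 were 42928 to 279024 bp from its 5′ ends, and the 8 of Zfp608 were 15414 to 512265 bp away. Gene length and gene density were not taken into account.

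Of all protein-coding genes, 16.6% were nearest to at least 1 distal late site and 25.3% to at least 1 distal early site, and the gene lists are set beside these shares. Spermiogenesis genes were nearest to a distal late site for 11 of 53 (20.8%), all called at 1 late stage, at a median of 1957 bp. They included Tssk1, a kinase of spermatids (1056 bp, late pachynema, 1180 bp downstream of the 5′ end), and Spata16, an acrosome gene (653 bp, late pachynema, 3949 bp). Meiotic division and cell-cycle genes numbered 5 of 23 (21.7%), among them Cdk1, the kinase that drives division, with a site 23511 bp downstream that had peaks of 360, 839 and 734 bp and early pachytene H3K9ac, and Cdc25a, its activating phosphatase, with a peak of 540 bp in early pachynema 1162 bp upstream. Regulators of the pachytene programme numbered 3 of 17 (17.6%), with 572 bp in late pachynema at Sox30, a transcription factor gene, and 488 bp in diplonema near Crem, which encodes another. For distal early sites the spermiogenesis, division and pachytene lists had 24.5%, 21.7% and 23.5%, against 25.3% of all genes.

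The piRNA pathway had 3 of 25 genes (12.0%), with 660 bp in late pachynema near Tdrd6, a Tudor protein of germ granules, and 750 bp in diplonema at Fkbp6. Recombination and synapsis genes had 5 of 33 (15.2%), each with 1 site, among them Mei1 (449 bp, diplonema) and the cohesin gene Smc1b (407 bp, diplonema). Spermatid chromatin genes had 1 of 14 (7.14%), a peak of 152 bp in early pachynema 2888 bp upstream of Tnp1, a transition protein gene. For distal early sites the piRNA, recombination and spermatid chromatin lists had 28.0%, 15.2% and 14.3%.

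Lists of earlier germ cells and of somatic cells ranged from 16.7% to 45.8%, against 16.6% of all genes. Spermatogonial and meiotic entry genes had a distal late site nearest in 11 of 24 cases (45.8%), at a median of 74601 bp, with 672 bp in early pachynema 277176 bp downstream of the 5′ end of Foxo1, in an intron of the lincRNA Gm30173, and 856 and 776 bp in late pachynema and diplonema upstream of Sall4, both transcription factor genes of spermatogonia. For distal early sites this list had 12 of 24 (50.0%), against 25.3% of all genes. Sertoli cell markers had 3 of 18 (16.7%), and 7 of 18 (38.9%) for distal early sites, with 3 of their 5 sites called at 2 or more stages. Peaks of 220 and 1748 bp were called in late pachynema and diplonema 153599 bp upstream of Sox9. Leydig and other somatic markers had 5 of 20 (25%), and 9 of 20 (45.0%) for distal early sites, with 13 sites at a median of 437285 bp, 7 of them nearest to Nr2f2. The part of other cells in these calls was not tested.

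Promoters of the genes nearest to distal late sites carried H3K4me3 slightly more often than those of all genes. An H3K4me3 peak lay within 500 bp of a 5′ end for 27.2% and 35.6% of the 3441 genes in the 2 early pachytene libraries, 28.4% and 46.6% in late pachynema and 32.2% and 54.7% in diplonema. For all protein-coding genes the values were 25.5% and 34.0%, 26.7% and 40.3%, and 29.3% and 46.8%. A like excess was present in leptonema, at 41.5% and 52.7% against 39.2% and 47.1%. Promoter H3K4me3 in a late and in no early library was present at 332 genes (9.65%), against 9.13% of the 5260 genes nearest to distal early sites and 6.16% of all. The 283 genes nearest to sites of all 3 stages went the other way in most libraries, with 20.8% and 27.6% in early pachynema, 19.8% and 38.9% in late pachynema and 21.6% and 47.7% in diplonema. The 2 libraries of late pachynema and of diplonema differed by more than the gene sets did.

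The distal late sites were spread over all 19 autosomes, the only chromosomes in the lists, with 1.59 to 2.53 sites per Mb of known sequence. The highest densities were on chromosomes 10 (2.53), 19 (2.44) and 15 (2.42), the lowest on chromosomes 3 (1.59) and 6 (1.69). The ratio of distal late to distal early sites ranged from 0.474 on chromosome 11 to 0.719 on chromosome 14.

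The sequence under the distal late sites held less CpG than that of distal early and TSS sites. The central 300 bp had a median GC content of 47.7% and a median CpG observed-to-expected ratio of 0.241. Windows of the same length 2000 bp outside the sites had 44.0% and 0.176, distal early sites 50.7% and 0.406, distal sites with both early and late peaks 51.7% and 0.490, and TSS sites 60.7% and 0.674. Distal sites with H3K4me3 were lower than the distal late sites, at 46.3% and 0.214. A window with at least 50% GC and a ratio of at least 0.6 was found at 3.01% of the distal late sites, 8.63% of the distal sites with H3K4me3, 11.4% of the distal early and 55.2% of the TSS sites. Soft-masked repeats made up 26.6% of the bases on average, against 28.1% in the flanks and 16.1% at distal early sites. Within the class, sites of early pachynema alone were richer in CpG (ratio 0.394) than those of late pachynema alone (0.192), diplonema alone (0.221) or both (0.228).

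Words of transcription factors active in the testis were counted on both strands in the same windows. A MYB word (TAACTG, its variant CAACTG, the form TAACGG or its variant CAACGG) was present in 38.2% of the distal late windows, 28.8% of the flanks, 26.6% of the distal early windows, 30.9% of distal sites with H3K4me3 and 24.6% of TSS sites. By class, the share was 32.9% in early pachynema alone, 33.4% in late pachynema alone and 41.1% in diplonema alone. It was 40.8% at sites of early and late pachynema, 44.7% at the 47 sites of early pachynema and diplonema, 43.7% at those of late pachynema and diplonema and 38.5% at those of all 3 stages. MYBL1 (A-MYB) is a regulator of the pachytene programme. In the 53 sites of the long chains the share was 28.3%, near that of the flanks.

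The ETS word CCGGAAG was found in 4.71% of the distal late windows and 1.11% of the flanks. It was at 14.7% of the sites of all 3 stages, 12.7% of those of early and late pachynema, 10.6% of those of early pachynema and diplonema and 6.84% of those of early pachynema alone. Without an early pachytene peak, the share was 5.25% at sites of late pachynema and diplonema, 2.36% in late pachynema alone and 2.79% in diplonema alone. Distal sites with both early and late peaks had 12.3%. The RFX word GTTGCC was in 11.9% of the windows and 8.25% of the flanks, the CTCF core CCAGNNGGC in 6.16% and 4.02%, and the NRF1 word GCATGCGC in 2.05% and 0.488%. The cyclic AMP response element TGACGTCA was in 0.436% of the windows and 0.197% of the flanks. The E-box CACGTG was in 5.46% and 3.94%. The GC box GGGCGG was in 8.19% of the distal late windows, 5.12% of the flanks, 17.4% of the distal early and 45.1% of the TSS windows. Less frequent than in the flanks were 3 words. CCAAT boxes were in 34.5% of the windows and 37.7% of the flanks. The AP-1 word TGANTCA was in 8.46% and 8.89%. The word AGATAA of the GATA factors was in 14.9% and 17.2%. These are matches of letters, and the GC content of the windows and flanks differed, so none is a binding site by this count.

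**Figure D5:**
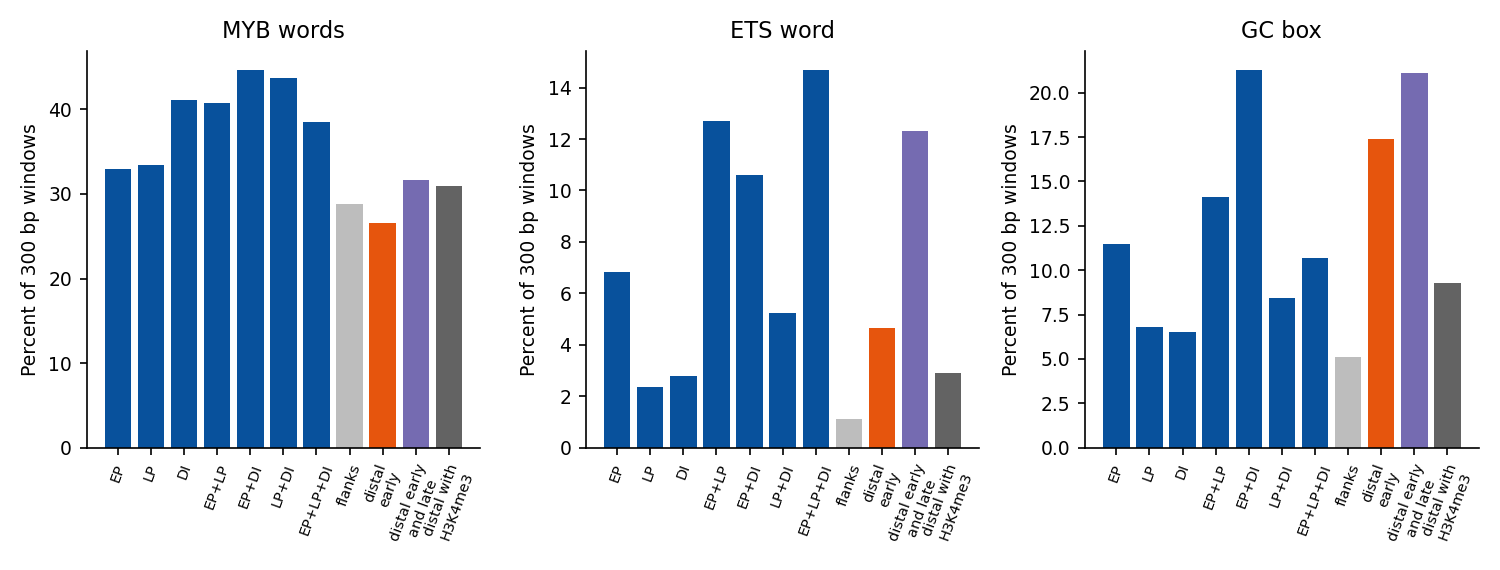
Percent of 300 bp windows (vertical axes) with a MYB, ETS or GC-box word on either strand, for distal late sites by stage of detection (blue), flanking windows (light grey), distal early sites (orange), distal early and late sites (purple) and distal sites with H3K4me3 (dark grey). MYB words range from 32.9% (EP) to 44.7% (EP+DI, 47 sites) over the 7 classes against 28.8% in the flanks, and the ETS word is at 14.7% in the EP+LP+DI class against 1.11%.

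The lists give positions without scores or read counts. The depth of each library is unknown, and a stage without a peak can carry the mark below the threshold. The H3K4me2/3 lists held 30943 and 29114 peaks in leptonema and zygonema and 17561 to 19711 at the later stages. With peaks under the median width of the early pachytene, late pachytene and diplotene lists left out, 411 distal late sites remained of 4821.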

How the data were processed

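The deposited files used here were ChIP-Seq peak lists of sorted spermatocyte nuclei, 5 of H3K4me2/3 (experiment 2), 10 of H3K4me3 (experiments 1 and 2) and 5 of H3K9ac (experiment 1). They hold peak positions on chromosomes 1 to 19, with no score or depth. By the methods and the submitters' processing notes, the authors aligned reads to mm10 with BWA 0.7.12 and called broad peaks per library with MACS2 2.1.2, for H3K4me3 against stage-matched input. A label of the H3K9ac samples names H3K4me3, while titles and methods give H3K9ac. The remaining 31 samples were not analysed here.

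H3K4me2/3 peaks that overlapped or adjoined were merged, and overlaps counted from 1 bp (Python 3.11.15, numpy 2.4.6, pandas 2.3.3, scipy 1.17.1). Genes came from GENCODE M21, while the paper names another release, and sequence from GRCm38.p6, the build of mm10. A site's width percentile is that of its broadest peak within the list of the stage, averaged over stages. Named sites were the 12 highest of those at all 3 stages, the 3 highest of each single stage, 2 per gene list, the longest chains, those beside the 500 bp limit, those with H3K9ac at 2 late stages, and genes nearest to 5 or more sites. The Gnal site and the printed Cyp19a1 and Lemd2 sequences were added after their values were seen. Some named sites are not reported here. The sites and gene lists were chosen with earlier results of these data known. The rule was tested on simulated lists. H3K9ac shares were compared by a two-sided exact permutation test over 3 late and 2 early libraries (threshold 0.05), and 95% exact binomial intervals cover counting error only.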

Additional observations from a re-analysis of the deposited data

How the results depend on the processing

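The number of distal late sites stayed within 1.5 times of 4821 under 24 of 26 alternatives, 3382 to 5773 over these. Apart from left-out libraries it went from 4085 with TSS windows of 2000 bp to 5619 with the 17561 widest peaks of every H3K4me2/3 list, and was 4545 when RefSeq 5′ ends also removed sites, an alternative chosen after seeing the data. It fell to 619 with peaks at or above the median width of each H3K4me2/3 list and to 411 with that limit on the 3 late lists only, the second also chosen after seeing the data. Both remove peaks by construction. Leaving out 1 H3K4me2/3 library gave 3382 to 5773 sites and leaving out 1 H3K4me3 library 4821 to 5104. The share called at 2 or more late stages was 35.4% with 2000 bp windows, 35.1% when H3K4me3 had to cover 25% of a site, 35.6% with peaks merged over 500 bp, 25.2% and 27.5% under the 2 width limits and 35.6% with lists of equal length. Without 1 H3K4me2/3 library it was 9.67% (without diplonema) to 34.0% (without early pachynema), with 10.3% without late pachynema. With any late library left out fewer stages can agree, yet the share fell only without late pachynema or diplonema. Without 1 H3K4me3 library it was 32.3% to 35.7%. The share called at all 3 stages, 6.2%, was 11.2% with lists of equal length, 1.62% and 0.243% under the width limits, 7.0% with 2000 bp windows and 7.36% when H3K4me3 had to cover 25% of a site. It was 0.0% by construction without a late H3K4me2/3 library, up to 7.78% without an early one, and 6.19% to 7.23% without 1 H3K4me3 library. The share with early pachytene H3K9ac was 5.98% and 2.92% under the width limits, 1.78% with lists of equal length, 0.967% to 1.34% without 1 H3K4me2/3 library and 0.969% to 1.08% without 1 H3K4me3 library. The H3K9ac difference between late and early libraries changed sign to -0.0269 points with the wider peaks of all lists (p = 1.0), -0.816 with lists of equal length (p = 0.6) and -0.118 without the leptotene H3K4me2/3 library (p = 1.0, all exact permutation tests). It ranged from -0.118 to 0.298 without 1 H3K4me2/3 library and from 0.155 to 0.219 without 1 H3K4me3 library. The cause was not tested. Median GC content kept its value within 1 percentage point with central windows of 500 bp, while MYB words were then at 54.7% of the sites and 43.0% of the flanks and the ETS word at 7.05% and 2.08%. No paired analysis was possible because H3K9ac has experiment 1 only, H3K4me2/3 has experiment 2 only, and the site counts come from no test. Depth, which the lists do not give, limits which sites could be called.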
